A study of Homo sapiens with 40 samples.

Results

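The aldo-keto reductases are enzymes that reduce aldehydes and ketones to alcohols with NADPH. The 10 genes described here, AKR1A1, AKR1B1, AKR1B10, AKR1C1, AKR1C2, AKR1C3, AKR1C4, AKR1D1, AKR7A2 and AKR7A3, were chosen by name among the 56568 gene names of the deposited tables, and all 10 were found there. They carry 73 of the 234960 transcripts. Their levels were followed in HepaRG cells, a human hepatic cell line (HPR 116) whose progenitors give rise to hepatocyte-like cells alongside biliary-like ones. In the cultures of all 8 groups, the cells were exposed from day 8 to day 14 in a medium with 2% fetal bovine serum and 1% DMSO. There were 5 libraries in each group. A solvent control was set beside 3 concentrations of PCB 126 (100 pM, 10 nM and 1 µM). The herbicide groups received glyphosate in 1 of 3 concentrations (10 µg/L, then 1 mg/L, then 0.1 g/L) or the formulation Roundup, dosed at 10 µg/L. PCB 126, a coplanar polychlorinated biphenyl with dioxin-like action, is a ligand of the aryl hydrocarbon receptor (AhR), and glyphosate is the active ingredient of Roundup. All cells came from the same line, and nothing in the sources used here ties the 5 libraries of a group to separate cultures, so the p values measure the spread between these libraries.

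Members of the AKR1C subfamily act as hydroxysteroid dehydrogenases, which interconvert ketosteroids and hydroxysteroids and thereby adjust the potency of androgens, progestogens and bile acid intermediates in liver. AKR1A1, the AKR1B enzymes and the AKR7A enzymes act mainly on aldehydes from sugars, lipids, retinoids or mould toxins. AKR1D1 is the liver steroid reductase that saturates the ring of bile acid precursors ahead of AKR1C4. Several of these genes, above all AKR1B10 and the AKR1C genes, are known targets of NRF2, the transcription factor of the oxidative stress response, whereas CYP1A1 is the classical target of AhR.

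The AKR1C genes lie side by side on chromosome 10 of GRCh38 and resemble each other closely, which bears on the values of these genes below. In the tables, the transcripts of AKR1C1 spanned chr10:4963253-4983283 on the plus strand, those of AKR1C2 chr10:4987400-5018031 on the minus strand, those of AKR1C3 chr10:5035354-5107686 and those of AKR1C4 chr10:5195462-5218949 on the plus strand. The coding sequences of their full-length transcripts in GENCODE release 44 had 972 bases each. AKR1C2 was identical to AKR1C1 at 98.0% of these bases, AKR1C3 at 91.5% and AKR1C4 at 88.5%. The first 120 coding bases are given here 5′ to 3′ because they show how few bases can tell these genes apart. Capitals mark the bases that differ from AKR1C1.
AKR1C1: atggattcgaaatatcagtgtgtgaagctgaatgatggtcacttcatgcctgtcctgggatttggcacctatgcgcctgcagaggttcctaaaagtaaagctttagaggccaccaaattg
AKR1C2: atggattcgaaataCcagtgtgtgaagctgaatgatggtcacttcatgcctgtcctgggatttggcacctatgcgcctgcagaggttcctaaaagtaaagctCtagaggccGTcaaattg
AKR1C3: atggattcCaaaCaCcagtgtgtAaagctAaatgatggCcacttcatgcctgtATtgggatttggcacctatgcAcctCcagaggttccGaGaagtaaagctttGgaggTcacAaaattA
AKR1C4: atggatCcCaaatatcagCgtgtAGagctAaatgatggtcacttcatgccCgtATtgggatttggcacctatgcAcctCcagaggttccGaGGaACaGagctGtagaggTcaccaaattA
Counted from 1 at the first coding base, AKR1C2 differed from AKR1C1 at 4 of these 120 positions (T15C, T103C, A112G and C113T), AKR1C3 at 16 and AKR1C4 at 20. Of all 75-base stretches in the coding sequence of AKR1C2, 33.6% were also found in a transcript of AKR1C1. The corresponding share was 7.68% for AKR1C3 and 3.45% for AKR1C4. The reads were 75 bases long.

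AKR1C1 and AKR1C2 have separate promoters, which closely resemble each other in sequence as well. The window from 250 bases before to 50 bases after the RefSeq start was available for 9 of the 10 genes, all but AKR1B10. The AKR1C1 window, chr10:4963165-4963464 on the plus strand of GRCh38.p14, is shown because 245 of its 300 bases, in capitals, stood without interruption in the window of AKR1C2 (chr10:5003808-5004107, minus strand).
AKR1C1 promoter: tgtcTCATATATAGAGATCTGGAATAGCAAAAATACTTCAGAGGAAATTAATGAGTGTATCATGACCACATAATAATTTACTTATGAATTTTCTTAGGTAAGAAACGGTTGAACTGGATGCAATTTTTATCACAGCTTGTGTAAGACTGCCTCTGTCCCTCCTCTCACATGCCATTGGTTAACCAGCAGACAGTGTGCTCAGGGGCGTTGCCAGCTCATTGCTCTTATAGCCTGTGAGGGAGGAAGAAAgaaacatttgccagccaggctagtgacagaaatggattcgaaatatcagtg
The longest run shared with AKR1C3 was 19 bases, and with AKR1C4 11 bases. Each window was searched on both strands for TGACNNNGC, the core of the antioxidant response element bound by NRF2, and for GCGTG, the core of the dioxin response element bound by AhR. AKR7A2 held 3 matches to TGACNNNGC and 1 to GCGTG, and AKR1B1 and AKR7A3 held 1 match each to GCGTG. In the windows of AKR1A1, AKR1C1, AKR1C2, AKR1C3, AKR1C4 and AKR1D1 these letters were not found. Bases outside the windows were not searched, so the genes may hold such elements farther away. The RefSeq starts of AKR1A1, AKR1C3 and AKR7A3 lay 241, 621 and 480 bases from the start of their main deposited transcript. Of the 35116 promoter windows in the same table, 13.3% held the first motif and 36.5% the second.

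The libraries were deposited as FPKM (fragments per length of transcript, scaled to the mapped fragments of the library), and the level of a gene is the sum over the transcripts that carry its name. Because FPKM are scaled by length, levels can be set side by side between genes, with a limit. The plain sum depends on how reads were divided among the transcripts of a gene, as seen below for AKR1C1 and AKR1C2. It also leaves out transcripts without a gene name. FPKM summed to between 255292 and 513059 in a library, and the tables hold no count of reads. According to the alignment summary of the study, 9 libraries had more than 30% of their read pairs aligned to several places. These were control replicate 5, PCB 126 10 nM replicates 3 and 5, PCB 126 1 µM replicates 1 and 5, glyphosate 10 µg/L replicate 5, glyphosate 0.1 g/L replicate 2 and Roundup replicates 4 and 5. Their 75th percentile of gene values above 0 lay between 2.47 and 4.16 FPKM, against 3.34 to 5.05 in the other 31 libraries. The summary does not name control replicate 2 and PCB 126 100 pM replicate 4, so the status of these 2 of the 31 is unknown. The hepatocyte marker ALB had a mean of 11206 FPKM in the control group. All 10 hepatocyte markers reached 1 FPKM in at least 1 library, but TAT was at most 0.877 FPKM in the control libraries. Of 8 biliary and progenitor markers EPCAM and CFTR reached 1 FPKM in no library, and neither did COL1A2 and THY1 of 7 stromal markers. A limit this low does not tell the cell types apart. CYP1A1 served as a check on the PCB 126 exposure. Its mean level was 2.33 FPKM without exposure (0 to 7.69), and the means of the rising PCB 126 concentrations were 86.2, 268 and 235 FPKM. At 100 pM the libraries ranged from 1.09 to 319 FPKM (median 36.4) and overlapped the control range. At 10 nM and 1 µM the lowest libraries, at 92.1 and 85.2 FPKM, were above it. No herbicide library was above 6.48 FPKM.

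In the solvent control, the family was dominated by a few genes. AKR1B10, which reduces retinal and lipid aldehydes, was the most abundant member with 394 ± 87.7 FPKM (SD, n = 5). It ranked 51st among 37703 gene names above 0 in the control group and held 38.1% of the summed FPKM of the family. AKR1C3, which forms testosterone from androstenedione and reduces prostaglandins, followed with 240.2 ± 47.1 FPKM. AKR1C2, which inactivates dihydrotestosterone, was at 171 ± 61.4 FPKM and AKR1C1, which inactivates progesterone, at 144 ± 58.0 FPKM. These 4 genes ranked 51st, 94th, 149th and 185th. AKR1A1, a general aldehyde reductase, was at 35.1 ± 10.6 FPKM and AKR7A2, the succinic semialdehyde and aflatoxin aldehyde reductase, at 32.3 ± 8.72 FPKM. AKR1C4, the member most restricted to liver, was at 10.5 ± 2.67 FPKM. AKR7A3, which also reduces aflatoxin aldehydes, was at 7.28 ± 0.669 FPKM.

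The remaining pair stood far below. AKR1B1, the aldose reductase that converts glucose to sorbitol, had 0.890 ± 0.210 FPKM in the control group, and AKR1D1 had 0.168 ± 0.123 FPKM with 1 control library at 0. In none of the 40 libraries did AKR1D1 exceed 0.751 FPKM or AKR1B1 1.89 FPKM. Within the order of control levels, the ranges of the 5 control libraries overlapped between AKR1C3 and AKR1C2, AKR1C2 and AKR1C1, AKR1A1 and AKR7A2, and AKR1C4 and AKR7A3. The other steps had no overlap. Within libraries, AKR1C3 was above AKR1C2 in 5 of 5 control and 39 of all 40 libraries, and AKR1C4 above AKR7A3 in 5 of 5 and 35 of 40. AKR1C2 was above AKR1C1 in 4 of 5 and 31 of 40, and AKR1A1 above AKR7A2 in 2 of 5 and 30 of 40. AKR1B10 was above AKR1C3 in 40 of 40 libraries.

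**Figure D1:**
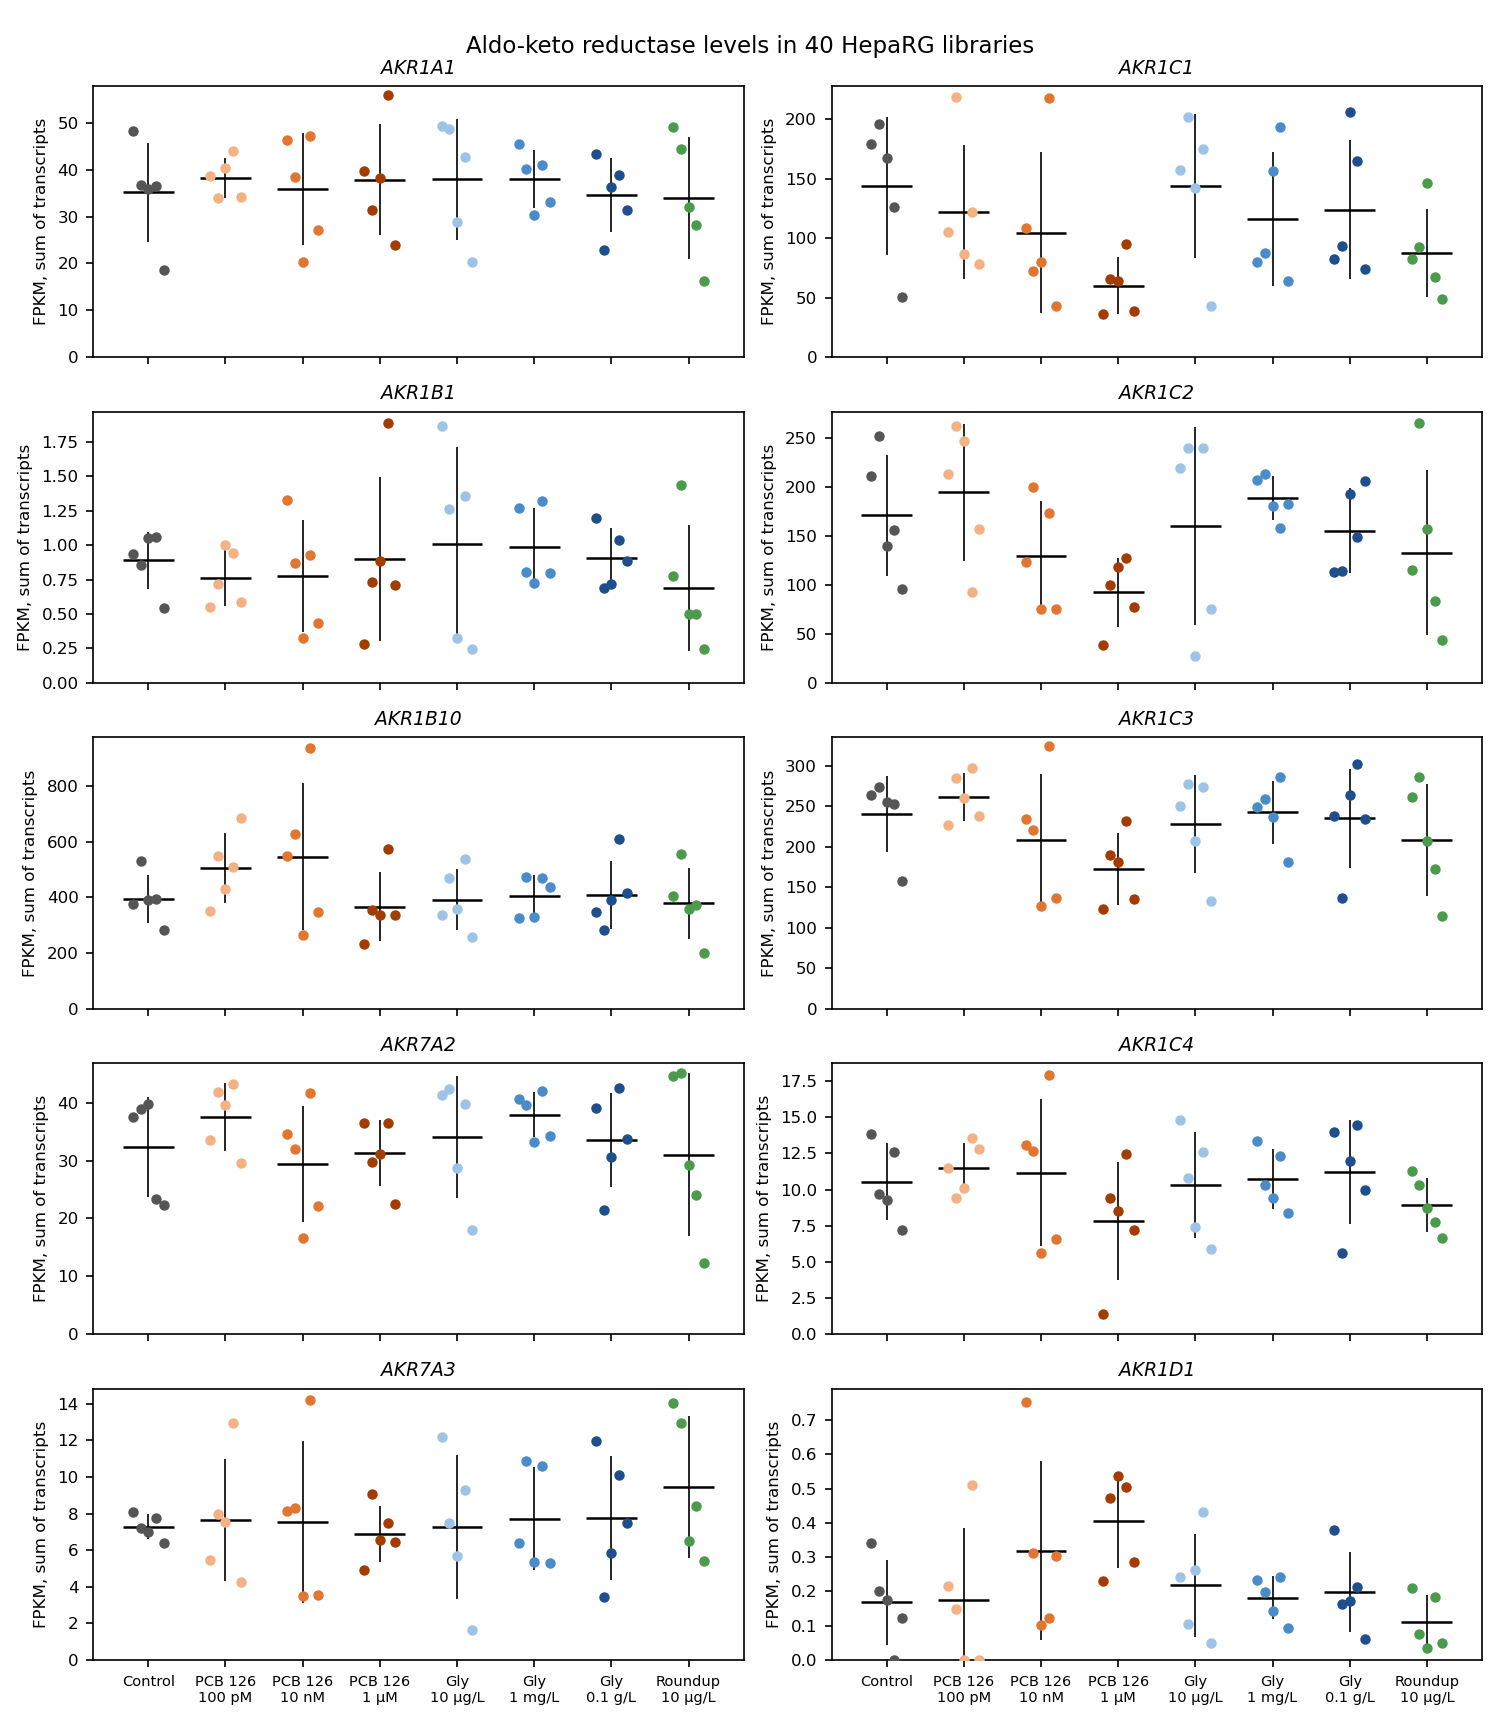
Level of each aldo-keto reductase (FPKM, linear axis from 0) in the 40 libraries, by group, with the replicates from left to right, the group mean as a horizontal line and the SD as a vertical line. The 5 libraries at 1 µM PCB 126 lie between 36.3 and 95.4 FPKM for AKR1C1, where 4 of 5 control libraries lie above 125 FPKM and control replicate 5 at 50.8 FPKM, and for no member are the 5 libraries of an exposed group clear of the 5 control libraries.

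The first question was whether PCB 126 altered the levels of these enzymes. Of the 10 genes, 8 passed a filter on variance (above 1 for the summed FPKM of a gene), and AKR1B1 and AKR1D1 did not. The study set such a limit on transcripts. In limma across the 4 PCB 126 groups, 0 of 8 members had an adjusted p under 0.05, against 1.39% of the 9755 genes tested. The smallest adjusted p values were 0.417 for AKR1C2 and 0.445 for AKR1C1. At 100 pM, 0 of 8 members passed the test and 0% of all genes did. At 10 nM, 0 of 8 members passed, against 0.205% of all genes. At 1 µM, 0 of 8 members passed, against 1.87% of all genes. These 182 of 9755 genes were 63 higher and 119 lower, and after quantile normalization 532 were higher and 553 lower. Without adjustment, p was under 0.05 for 0, 0 and 2 of 8 members at the 3 doses, and for 1.19%, 4.85% and 13.6% of all genes. When library size was added to a linear model without moderation, 0 members were called at each dose as well. In no exposed group were all 5 libraries of a member above or below all 5 control libraries. Among all genes tested, every library lay below the control libraries for 0.0513% at 100 pM, 0.246% at 10 nM and 1.64% at 1 µM. Every library lay above them for 0.113%, 0.267% and 0.707%.

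The largest difference at 1 µM was that of AKR1C1. Its levels were 179, 196, 167, 126 and 50.8 FPKM in control replicates 1 to 5, and 36.3, 65.4, 64.2, 95.4 and 38.6 FPKM in the 1 µM replicates. Only control replicate 5 lay within the range of the exposed libraries. The log2 fold change was −1.20 (SE 0.40, 95% confidence interval −2.03 to −0.37) on the log2(FPKM + 1) scale, with an adjusted p of 0.145 in limma. It was −0.20 (SE 0.40) at 100 pM and −0.53 (SE 0.40) at 10 nM, with adjusted p values of 1 and 0.865. Control replicate 5 is one of the libraries with over 30% multiply aligned pairs, and without it the difference at 1 µM was −1.53 with an adjusted p of 0.0248, when 365 genes passed the threshold in place of 182. Without all such libraries it was −1.15 with an adjusted p of 0.0888, and after quantile normalization −0.96 with an adjusted p of 0.0398. Taking runs of consecutive library numbers as a block also brought AKR1C1 past the threshold. The labels tie these runs to no shared culture or day.

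AKR1C2 had 211, 252, 139, 157 and 95.7 FPKM in the control replicates and 39.0, 100.4, 118, 127 and 77.7 FPKM at 1 µM. The ranges overlapped between 95.7 and 127 FPKM. The log2 fold change was −0.91 (SE 0.36, 95% confidence interval −1.66 to −0.16), with an adjusted p of 0.245. AKR1C3 ranged from 157 to 273 FPKM in the control group, with 4 of 5 libraries above 250, and from 123 to 232 FPKM at 1 µM. Its log2 fold change was −0.49 (SE 0.26, adjusted p = 0.424, limma). AKR1C4 had 7.24 to 13.8 FPKM in the control group and 12.5, 9.43, 8.50, 7.19 and 1.39 FPKM at 1 µM, in descending order. The lowest of these was replicate 1, in which the main transcript of AKR1C4 was listed at 0. Its log2 fold change was −0.56 (SE 0.36, adjusted p = 0.494, limma), and −0.14 without that replicate. The summed level of the 4 AKR1C genes was 565 ± 160 FPKM in control libraries (SD, n = 5). With rising PCB 126 it was 589 ± 113, 453 ± 191 and 333 ± 105 FPKM, and the ranges of control (311 to 731) and 1 µM (199.9 to 467) overlapped.

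The aldehyde reductases showed smaller differences. AKR1B10 had a mean of 505 ± 126 FPKM at 100 pM, 545 ± 264 at 10 nM and 367 ± 125 at 1 µM, against 394 ± 87.7 in the control group. At 10 nM it ranged from 264 FPKM in replicate 3 to 937 FPKM in replicate 4, the highest value of any member in any library. The log2 fold changes were 0.35, 0.36 and −0.14 (SE 0.31 each), with adjusted p values of 1, 0.865 and 0.842 in limma. AKR1A1 differed from the control group by 0.11 (SE 0.28), AKR7A2 by −0.02 (SE 0.26) and AKR7A3 by −0.09 (SE 0.30) at 1 µM. The 95% confidence interval reached from −0.47 to 0.69 for AKR1A1 and from −0.56 to 0.51 for AKR7A2, so differences within these bounds were not resolved with 5 libraries a group. After quantile normalization the differences of AKR1B10, AKR7A2 and AKR7A3 at 1 µM were above 0, at 0.18, 0.16 and 0.14. The median of all genes at 1 µM was −0.26, and −0.01 after quantile normalization. The median of the 8 members was −0.31, with 7 of 8 below 0.

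AKR1D1 and AKR1B1, which were below the filter, were fitted without it. AKR1D1 had 0.340, 0.200, 0.176, 0 and 0.124 FPKM in the control replicates and 0.231, 0.474, 0.538, 0.504 and 0.285 FPKM at 1 µM. The difference was 0.27 (SE 0.13, adjusted p = 0.582, limma), and 1 or more libraries were listed at 0 in the control and 100 pM groups only. For AKR1B1 it was −0.04 (SE 0.18, adjusted p = 1).

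**Figure D2:**
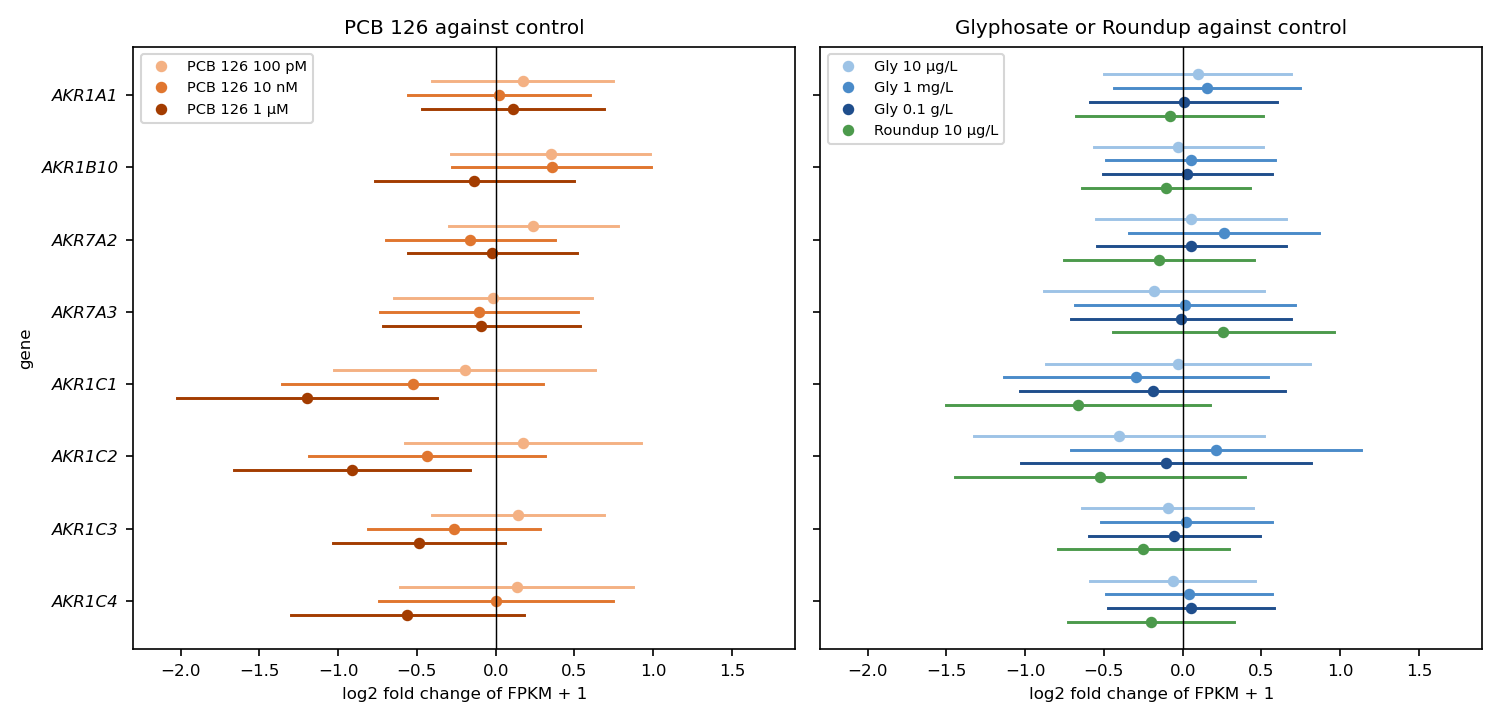
Log2 fold change of FPKM + 1 against the control group (points) with its 95% confidence interval (lines) for the 8 members tested, at 3 concentrations of PCB 126 (left) and for glyphosate and Roundup (right), from the limma fits. At 1 µM PCB 126 the intervals of AKR1C1 (−2.03 to −0.37) and AKR1C2 (−1.66 to −0.16) lie below 0, and neither passed the threshold after adjustment over 9755 genes.

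The FPKM of AKR1C1 and AKR1C2 were divided differently among their transcripts from library to library. For AKR1C1, the transcript with the highest mean was ENST00000442997, a model of 744 bases in 7 exons at chr10:4963449-4972747. It was above 40 FPKM in 16 of 40 libraries, at 41.6 to 124 FPKM, and at 14.1 FPKM or less in the other 24, so libraries of the same group fell on both sides. It had 98.2, 115, 75.8, 7.65 and 1.92 FPKM in the control replicates and 13.9, 2.83, 10.4, 6.07 and 0 FPKM at 1 µM. The number of libraries above 40 FPKM was 3 of 5 among the controls and 1, 2 and 0 of 5 with rising PCB 126. It was 4, 2 and 3 with rising glyphosate and 1 for Roundup. The limit of 40 FPKM was chosen after these values were seen.

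Without this transcript, the AKR1C1 sum was 84.0 ± 24.9 FPKM in control libraries (SD, n = 5), and 94.5 ± 15.4, 71.6 ± 31.3 and 53.3 ± 25.3 FPKM with rising PCB 126. When each transcript was weighted by its length before summing, so that short models counted for less, the difference of AKR1C1 at 1 µM was −0.49 (SE 0.29, adjusted p = 0.435, limma), against −1.20 for the plain sum. That of AKR1C2 was −0.61 (SE 0.29, adjusted p = 0.336) and that of AKR1C3 −0.46 (SE 0.26, adjusted p = 0.422). On this scale the estimates for the 3 genes thus lay between −0.46 and −0.61.

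For AKR1C2, the transcript with the highest mean was ENST00000421196 (1481 bases, 8 exons, chr10:4989434-5003860). It was above 40 FPKM in 18 of 40 libraries, at 97.2 to 214 FPKM, and at 24.6 FPKM or less in the other 22. In the control replicates it had 184, 197, 0, 5.52 and 3.05 FPKM. At 1 µM it was listed at 0 in replicates 1, 2 and 3 and had 5.06 and 12.8 FPKM in replicates 4 and 5. In all other groups 1 to 4 libraries were above 40 FPKM. The AKR1C2 sum without it was 93.1 ± 53.3 FPKM in the control group and 88.9 ± 35.9 FPKM at 1 µM. Of the 75-base stretches in ENST00000421196, 47.3% were also found in transcripts of other genes of the superfamily, and 600 of the 1407 stretches in those of AKR1C1. The share was 24.2% for ENST00000442997, 12.3% for the main AKR1C3 transcript, 7.31% for that of AKR1B10 and 20.2% for AKR7A3, and 0% for the main transcripts of AKR1A1, AKR1B1 and AKR1D1.

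In some other members 1 transcript led throughout. The same transcript was the highest of its gene in 40 of 40 libraries for AKR1B10 (ENST00000359579), AKR1C3 (ENST00000380554), AKR7A2 (ENST00000235835) and AKR7A3 (ENST00000361640). It was so in 38 libraries for AKR1C4 and in 36 for AKR1A1. The number of transcripts that were the highest in at least 1 library was 3 for AKR1A1, AKR1C1 and AKR1C2. Among the weakly expressed genes it was 5 for AKR1D1 and 6 for AKR1B1, whose leading transcripts were the highest in 26 and 16 of 40 libraries. Transcripts without a gene name added a mean of 43.8 FPKM at the AKR1C2 locus (0.398 to 118 per library) and 51.0 FPKM at the locus of AKR1B10 and its neighbour AKR1B15. Summed over the whole assembled locus, AKR1C2 differed by −0.96 (SE 0.34, adjusted p = 0.105) at 1 µM. The locus that the assembly shares between AKR1C1 and AKR1C3 differed by −0.72 (SE 0.28, adjusted p = 0.172).

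**Figure D3:**
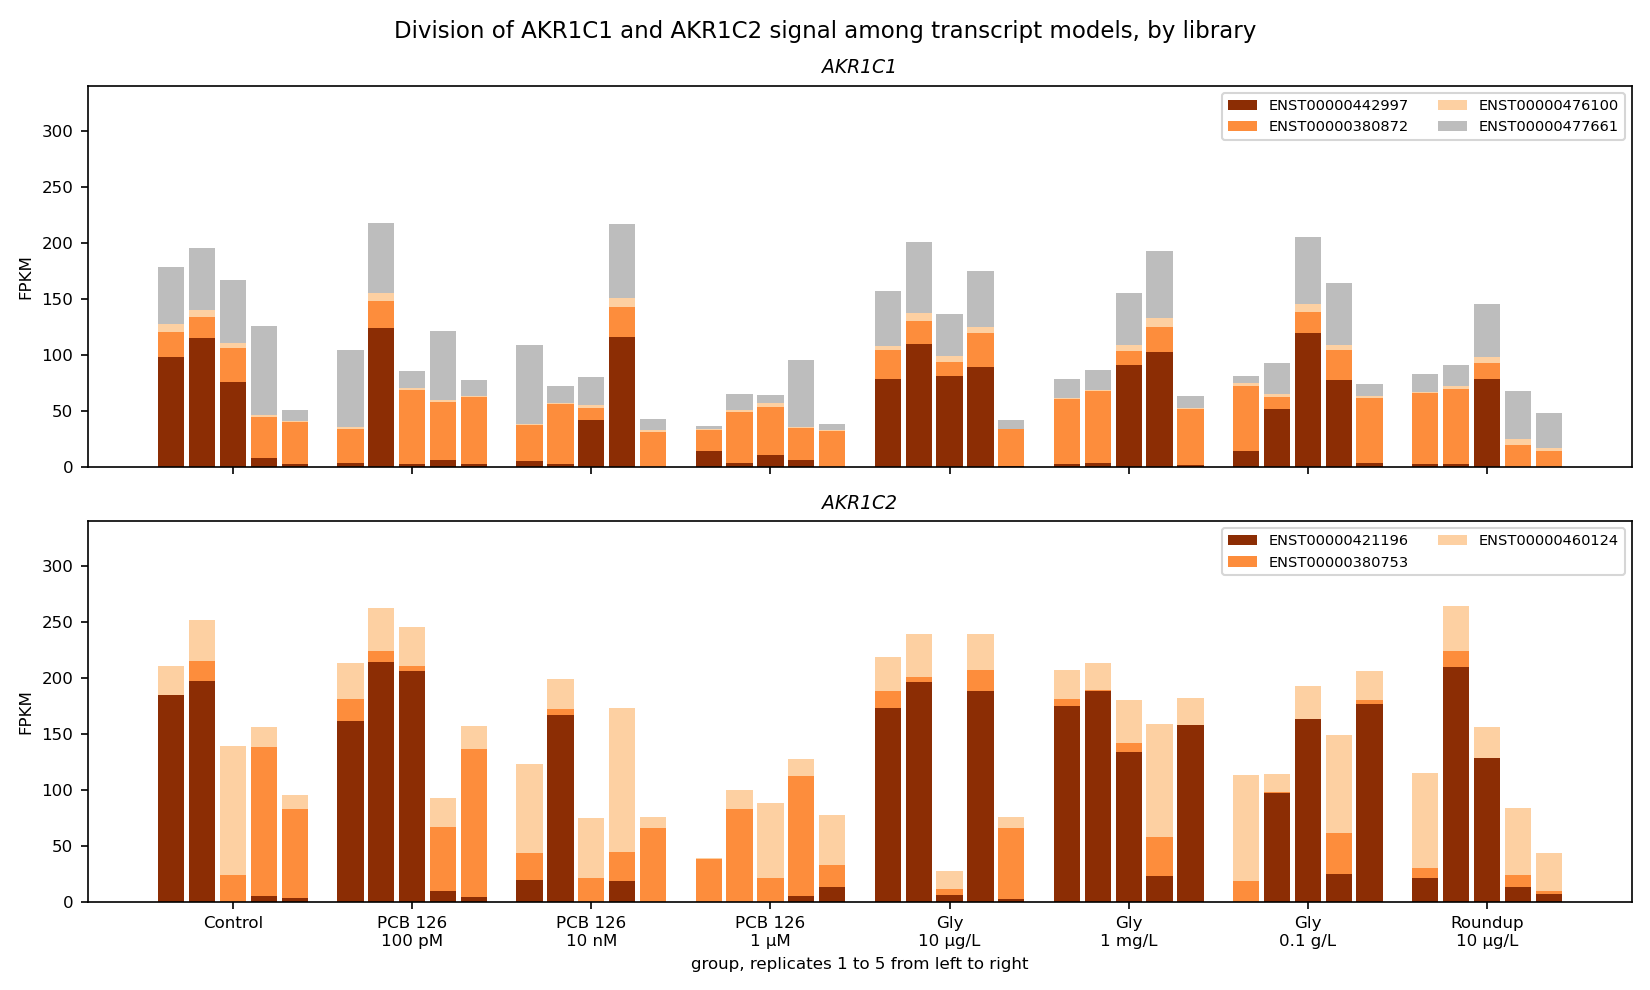
FPKM of the transcripts of AKR1C1 (top) and AKR1C2 (bottom) with a mean above 1 FPKM, stacked by library and grouped by treatment. ENST00000442997 and ENST00000421196 (dark segments) are high in some libraries and near 0 in others of the same group, and neither exceeds 13.9 FPKM in any library at 1 µM PCB 126.

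The second question was whether glyphosate or Roundup altered these genes. The 5 control libraries are the same as in the PCB 126 comparisons. In limma across the 5 groups of the herbicide table, 0 of 8 members had an adjusted p under 0.05, and 0% of the 9533 genes tested did. The result was the same for each of the 4 exposures against the control group, with 0 of 8 members and 0% of all genes past the threshold. Without adjustment, p was under 0.05 for 0 of 8 members in every exposure, and for 84 to 165 of the 9533 genes. In no herbicide group did all 5 libraries of a member lie on 1 side of all 5 control libraries. Over all genes, every library was below the control libraries for 0.042%, 0.0315% and 0.042% with rising glyphosate and for 0.021% with Roundup. Every library was above them for 0.0105%, 0.147% and 0.042%, and for 0.021% with Roundup. The unmoderated linear model with library size as covariate called 0 members in each comparison.

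AKR1C1 had 144 ± 60.8 FPKM at 10 µg/L glyphosate, 116 ± 56.0 at 1 mg/L and 124 ± 58.1 at 0.1 g/L, against 144 ± 58.0 in the control group (SD, n = 5). The log2 fold changes were −0.03, −0.30 and −0.19 (SE 0.41 each). At 10 µg/L the replicates had 157, 202, 142, 175 and 42.6 FPKM, so that replicate 5 stood alone below the others, as in the control group. AKR1C2 had 161 ± 101 FPKM at 10 µg/L, 189 ± 22.2 at 1 mg/L and 155 ± 43.4 at 0.1 g/L, with log2 fold changes of −0.40, 0.21 and −0.11 (SE 0.45 each). AKR1C3, AKR1C4 and AKR1B10 differed by between −0.10 and 0.05 under the 3 concentrations of glyphosate.

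Under Roundup, AKR1C1 gave the estimate farthest from 0 in the herbicide table. It had 82.8, 92.2, 146, 67.8 and 48.6 FPKM, with a log2 fold change of −0.66 (SE 0.41, 95% confidence interval −1.50 to 0.18, adjusted p = 0.902, limma). AKR1C2 differed by −0.52 (SE 0.45) and AKR7A3 by 0.26 (SE 0.34), with adjusted p values of 0.902 each. Replicates 4 and 5, which had over 30% multiply aligned pairs, held the lowest levels of AKR1C1, AKR1C2, AKR1C3 and AKR1C4 in this group. Roundup was also compared with glyphosate at the same 10 µg/L. Here 0 of 8 members passed the test (0% of all genes), with log2 differences between −0.63 for AKR1C1 (SE 0.41) and 0.44 for AKR7A3 (SE 0.34) and an adjusted p of 0.974 for all 8.

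The 5 libraries at 1 µM PCB 126 were then set against the 20 herbicide libraries, which share no control library with them. Of all 9732 genes tested 9.37% passed the threshold, and 0 of 8 members did. AKR1C1 was the nearest, with a log2 difference of −0.90 (SE 0.33, 95% confidence interval −1.57 to −0.23, adjusted p = 0.0777, limma). It was followed by AKR1C4 (−0.52, SE 0.25, adjusted p = 0.195) and AKR1C2 (−0.71, SE 0.35, adjusted p = 0.201). Without replicate 1 at 1 µM the differences of AKR1C4 and AKR1C2 were −0.10 and −0.43. Scaling by the 75th percentile brought AKR1C1 (−0.85, adjusted p = 0.016), AKR1C3 (−0.34, adjusted p = 0.0075) and AKR1C4 (−0.49, adjusted p = 0.0428) past the threshold, when 32.1% of all genes passed. Without replicate 4 at 1 µM the difference of AKR1C1 was −1.09 (adjusted p = 0.0455), and without replicate 5 of glyphosate 10 µg/L the adjusted p was 0.0256. Transcripts were also tested singly. Those counted were the tested transcripts at the loci of the members, whether or not they carry a member's name. At 1 µM against the control group, 0 of 34 passed the threshold in limma (4 at an unadjusted p under 0.05), against 0.552% of all transcripts. Against the herbicide libraries 2 of 38 passed, against 3.22% of all transcripts. ENST00000421196 of AKR1C2 differed by −4.40 (SE 1.24, adjusted p = 0.0400) and ENST00000605322, a short model of AKR1C3, by −1.08 (SE 0.31, adjusted p = 0.0424).

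Other genes of carbonyl and steroid metabolism are given for context, from lists chosen with earlier results of these data known. Of 15 carbonyl reductases of the short-chain dehydrogenase family, 10 were tested and 0 passed at 1 µM (median −0.16, against −0.26 over all genes). Of 20 hydroxysteroid dehydrogenases and steroid 5-alpha reductases, 9 were tested and 1 fell. This was HSD17B6, an enzyme that oxidizes androstanediol back to dihydrotestosterone, from 28.4 ± 10.4 FPKM in the control group to 5.86 ± 3.74 FPKM at 1 µM (log2 fold change −2.38, SE 0.47, adjusted p = 0.00444, limma). Of its 5 libraries at 1 µM, 1 was listed at 0, and the median was 6.21 FPKM. Of 12 genes of bile acid synthesis beside AKR1C4 and AKR1D1, 9 were tested and 1 fell. This was BAAT, which conjugates bile acids with amino acids, from 42.2 ± 7.66 to 18.5 ± 8.09 FPKM (log2 fold change −1.26, SE 0.32, adjusted p = 0.0348). Among 6 further genes of the aldo-keto reductase superfamily only AKR1B15 was tested, and it did not pass (0.28, adjusted p = 0.676).

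Of 17 NRF2 targets outside the family, 14 were tested at 1 µM and 0 passed, with a median of 0.05. Of 10 AhR targets, 8 were tested and 5 rose at 10 nM and at 1 µM, with a median of 2.22 at 1 µM. These were CYP1A1 (6.61, SE 0.91), CYP1A2 (6.16, SE 0.76) and CYP1B1 (2.51, SE 0.53), which oxidize aromatic hydrocarbons, with TIPARP (3.21, SE 0.42), a repressor of AhR, and ALDH3A1 (1.93, SE 0.28), an aldehyde dehydrogenase. Their adjusted p values at 1 µM lay at or below 0.00797. Under the herbicides 0 genes of these lists passed.

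Some genes used as markers of cell types also differed at 1 µM. Of the summed marker levels, only that of the hepatocyte markers lay clear of its control range. The summed level of the 10 hepatocyte markers was 14604 to 21290.5 FPKM in the control libraries and 5716 to 14526 FPKM at 1 µM, where TTR and FGB fell and TAT rose (median log2 fold change of the list −0.73). The 8 biliary and progenitor markers summed to 280.3 to 550.0 FPKM and 171 to 297 FPKM, with 0 of 5 tested genes past the threshold (median −0.68). The 7 stromal markers summed to 40.8 to 88.998 FPKM and 50.5 to 189.8 FPKM. Of 5 tested, COL3A1 fell (−3.07). The other 4 did not pass the test, with values of 1.03 for LUM, 1.02 for DCN, 0.64 for COL1A1 and −0.75 for PDGFRB (median of the list 0.64). The part of these shifts in the AKR1C values was not tested. In RNA from whole cultures, fewer cells of a type and less RNA per cell cannot be told apart.

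**Figure D4:**
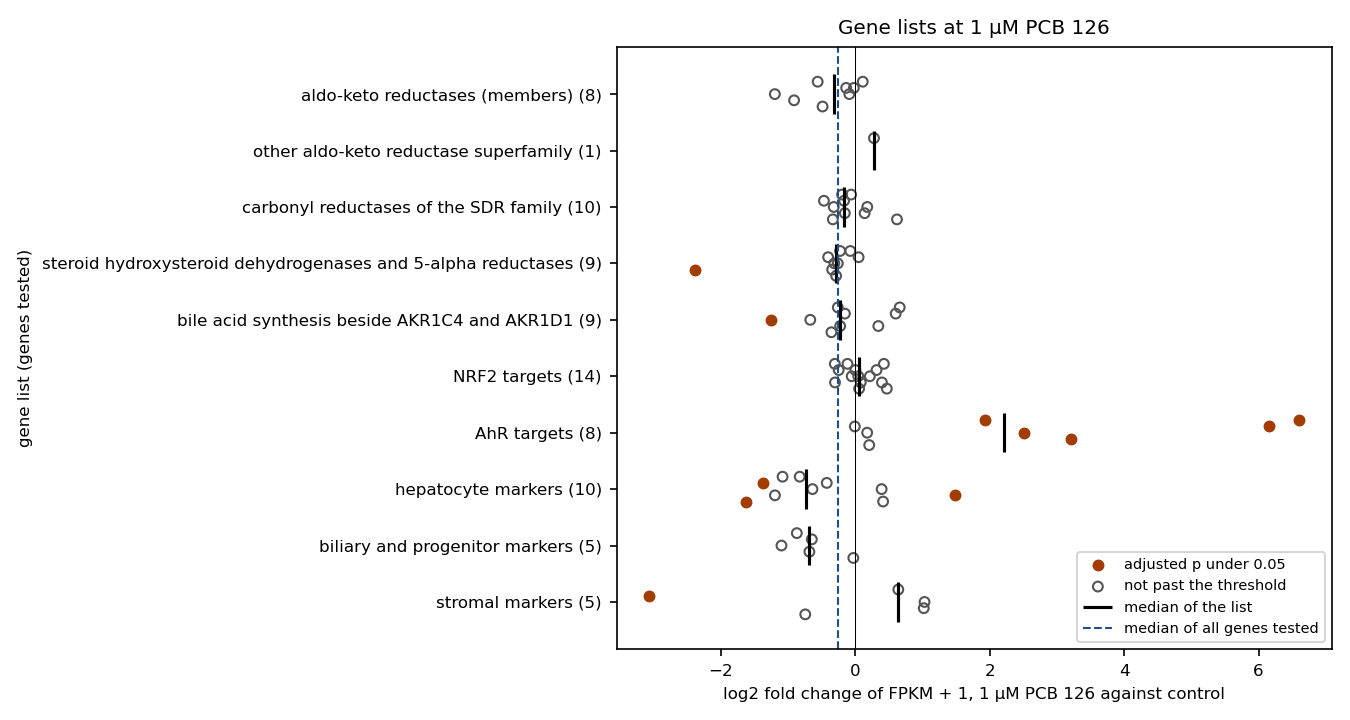
Log2 fold change of FPKM + 1 at 1 µM PCB 126 against the control group for the 8 members tested and for the genes of 9 lists, with 1 point per gene, filled where the adjusted p was under 0.05, and the list median as a vertical line. The members lie between −1.20 and 0.11 with no filled point, around the median of all genes at −0.26 (dashed line), and the 5 filled AhR targets lie between 1.93 and 6.61.

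Across the 40 libraries the levels of the members were positively correlated. No r over all pairs of genes was computed for comparison, so the values show no trait particular to the family. Pearson's r of log2(FPKM + 1) between the 8 members tested ranged from 0.38 to 0.88 over 28 pairs (median 0.61). The highest were AKR1A1 with AKR7A2 (0.88) and AKR1C3 with AKR7A2 (0.83), and the lowest was AKR1C2 with AKR7A3 (0.38). AKR1C1 and AKR1C2 correlated at 0.55. Each member also correlated with the 75th percentile of its library, at 0.59 for AKR1C2 to 0.85 for AKR1C3 among those tested. All points of these correlations share their libraries, whose read depth the tables do not give.

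The genes outside the family with the most similar pattern over the 40 libraries differed by member. For AKR1B10 they were the pseudogene AKR1B10P1 (r = 0.91), BDH1 (0.88) and ABCC2 (0.86). For AKR1C3 they included ABCD3 (0.97) and ADH5 (0.96), and for AKR1C4 they were IDH1 (0.95), SC5D (0.95) and MGST1 (0.94). For AKR1A1 they were TSPO (0.96), COPE (0.95) and PSMB4 (0.95), and for AKR7A2 CENPB (0.96), NUBP2 (0.95) and GPAA1 (0.95). AKR1C1 was closest to KNL1 (0.83), BUB1 (0.83) and PDE3B (0.82), AKR1C2 to RPL7 (0.83), SMC6 (0.82) and SIK2 (0.82), and AKR7A3 to CRYL1 (0.82), PXMP2 (0.80) and PREB (0.79). The highest r of AKR1C1, AKR1C2 and AKR7A3 was thus at most 0.83, whereas it was at least 0.91 for the other 5 members tested.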

How the data were processed

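Gene levels of the aldo-keto reductases were measured by RNA sequencing of rRNA-depleted, directional libraries in 8 groups of 5, 40 in all, from HepaRG cells. The authors aligned 75-base read pairs to GRCh38 with HISAT2, assembled transcripts with StringTie and Ensembl release 89, and deposited 1 FPKM value for each of 234960 transcripts in every library, scaled by transcript length and mapped fragments. Both deposited tables (20 PCB 126 and 25 herbicide libraries) hold the same 5 control libraries with identical values. The authors' FPKM columns with values below 0 were recorded as a score, and the 4 (PCB 126) and 6 (herbicide) such values were set to 0. The files give no read counts, so no count test, counting interval or floor was used, and 5 libraries per group limited the precision.

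FPKM were summed per gene name. Genes whose summed FPKM had a variance above 1, a limit the authors set on transcripts, (9755, 9533 and 9732 in the PCB 126, herbicide and joint fits) were tested with limma 3.58.1 (lmFit and eBayes, R 4.3.3) on log2(FPKM + 1), with Benjamini-Hochberg adjustment over all genes tested and a threshold of 0.05. Fold changes on this scale understate the change of genes with low FPKM. The fit was also tested on simulated data, with noise drawn independently for each library. At 1 µM it recovered 134 of 200 genes changed by known amounts. Of the 142 genes called there, 5.63% were false. The changed genes were drawn from the more highly expressed ones, and changes of several sizes were pooled. The share recovered therefore does not give the power for small differences such as those of most members. Promoters came from RefSeq (GRCh38.p14) and transcript sequences from GENCODE release 44. Where RefSeq lists several starts, the nearest to the main deposited transcript was used. Other steps used Python 3.11.15, pandas 2.3.3, numpy 2.4.6 and matplotlib 3.10.9. Groups came from the labels. The labels number no replicates, so these were numbered in accession order, as names only.

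Alternatives were a pseudocount of 0.1, other filters, quantile normalization, scaling to each library's 75th percentile, leaving out libraries, a replicate block, a linear model without moderation that takes library size as covariate, fits of 2 groups, the most abundant transcript, and, added after the data were seen, length-weighted sums and sums per assembled locus. All 10 members were described, with list genes past the threshold (at most 4 per list and comparison), CYP1A1, CYP1A2 and CYP1B1, and the 3 genes closest to each member, of which 1 is not reported here. The members and lists were chosen with earlier results of these data known. Metabolite data were not analysed here.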

Additional observations from a re-analysis of the deposited data

Results flagged for a closer look

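AKR1C3 in the control group had 1 library apart from the others, since replicate 5 was at 157 FPKM and the other 4 were between 252 and 273 FPKM. The gap was 0.821 of the range of the group, above Dixon's critical value of 0.71 for 5 samples. It was 1 of 80 combinations of member and group examined, where chance flags about 1 in 20. Control replicate 5 is one of the 9 libraries with over 30% multiply aligned pairs, and its part in this value was not tested.

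Some signal at the AKR1C loci lies in assembled transcripts without a gene name and outside the gene sums. MSTRG.4054.3 (9 exons, 1247 bases, chr10:4963414-5107747, plus strand) runs from AKR1C1 into AKR1C3. It was at 126 FPKM in glyphosate 1 mg/L replicate 5 and at 3.42 FPKM in replicate 4, and at 0 in the other 33 exposed and all 5 control libraries. MSTRG.4055.3 (11 exons, 5308 bases, chr10:4985893-5017945, minus strand, at AKR1C2) was at 25.9 FPKM in PCB 126 100 pM replicate 4, above 0 in 3 of 35 exposed libraries and at 0 in the 5 control libraries. Whether these are transcripts of the cells was not tested.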

How the results depend on the processing

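The number of members past the threshold stayed at 0 under every alternative run for the 9 other comparisons. For PCB 126 at 1 µM against the control group it was 1 (AKR1C1) after quantile normalization and 1 with a replicate block, and between 0 and 1 when each library was left out in turn. For 1 µM against the herbicide libraries it was 3 with scaling by the 75th percentile, 1 (AKR1C2) with the most abundant transcript, 1 (AKR1C1) after quantile normalization, 1 (AKR1C1) with the replicate block, 1 (AKR1C2) with sums per assembled locus, and 0 to 1 when each library was left out. The cause was not tested. The block was the run of consecutive library numbers, of which each of the 5 holds 1 library of every group. With it AKR1C1 differed by −1.20 (adjusted p = 0.0397) from the control group and by −0.90 (adjusted p = 0.0092) from the herbicide libraries, and the number of genes called at 1 µM went from 182 to 357. At 1 µM, AKR1C1, AKR1C2, AKR1C3 and AKR1C4 were each below the control library of the same run in 5 of 5 runs. Libraries of the same run were correlated above 0.1 in 41 of 140 pairs, against 29 of 560 pairs from other runs, and 25 of 40 libraries were closest to one of their own run among the other groups. The runs thus left a mark in the data. Because the labels tie no run to a shared culture or day, the main fits did not take them as pairs. Of 2656 refitted fold changes of the members, 12 passed the threshold where the main one did not, and 17 others, past no threshold, changed sign and moved by more than the SE. The number of genes called ranged from 117 to 1085 at 1 µM (main 182), from 13 to 184 at 10 nM (main 20), from 77 to 714 across the 4 PCB 126 groups (main 136) and from 414 to 3121 against the herbicide libraries (main 912). A single library moved these counts by more than 1.5 times in a few cases. The number at 1 µM was 118 without control replicate 4 and 365 without control replicate 5, that across the PCB 126 groups 208 without control replicate 5, that at 10 nM 35 and 32 without its replicates 3 and 4, and that against the herbicide libraries 414 and 559 without 1 µM replicates 1 and 5. With each library left out, AKR1C1 at 1 µM differed from the control group by −1.53 to −1.04 (adjusted p 0.0248 to 0.360). In the herbicide comparisons with the control group the number of genes called, over all genes tested, was 0 to 3 under the alternatives. The deposited FPKM carry no read depth, and reads shared between AKR1C1 and AKR1C2 limit what can be said of either alone.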
